A study of Mus musculus with 12 samples.

Results

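The microRNAs mmu-miR-9, mmu-miR-124, mmu-miR-128, mmu-miR-129-5p, mmu-miR-137 and mmu-miR-138 are best known from the nervous system, and they were followed here in the blood cells of mice with and without the gene Tff2. They were chosen by name, and all 6 were found among the 710 miRNAs of the array. Of these, mmu-miR-128 and mmu-miR-124 gave a signal above background on all 12 arrays. The mouse miRNA mmu-miR-138 did so on 8 arrays, miR-129-5p on 3, miR-137 on 1 and miR-9 on none. In a test over all miRNAs, no member passed the threshold for a difference between the genotypes.

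The question of the study was whether miRNA profiles in blood change when Tff2, a secreted trefoil peptide of the digestive tract, is missing. RNA was taken from the pelleted cells of peripheral blood of 6 Tff2-KO and 6 WT mice of the 129/SV background, 3 males and 3 females of each genotype, with 1 array per mouse and no treatment. The ages of the mice are not given in the sources used here. The knock-out line came from earlier work and the controls from a commercial breeder, so genotype and origin cannot be told apart. The array carries no mRNA probe, so the loss of Tff2 was not checked. In a pellet of mixed cells, fewer cells of a type and less RNA per cell cannot be told apart either.

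A miRNA is cut from a hairpin precursor, and the strand that is kept guides a silencing complex to mRNAs through its seed, the bases near its 5′ end. miR-124 is the classical miRNA of neurons and represses genes of other cell types during neuronal differentiation. miR-9 acts in neural progenitors, and both strands of its hairpin are used in the brain. miR-128 is enriched in neurons, where it restrains excitability, and is also known from blood-forming cells. miR-129-5p, miR-137 and miR-138 act at synapses and dendrites, where miR-138 limits the size of dendritic spines.

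The mature sequences are shown to compare the members in the seed, the part that finds the target. Of the 6 members, 5 were matched to mature miRNAs of RefSeq (build GRCm38.p6), and miR-124 was not. The array names of miR-9, miR-128, miR-137 and miR-138 carry no arm of the hairpin, and probe sequences were not used here. For these the arm in common usage was assumed, on which the sequences and seeds shown rest. Capitals mark the seed, bases 2 to 8.
miR-9 (miR-9-5p): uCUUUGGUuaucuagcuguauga
miR-128 (miR-128-3p): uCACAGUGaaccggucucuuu
miR-129-5p: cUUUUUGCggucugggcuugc
miR-137 (miR-137-3p): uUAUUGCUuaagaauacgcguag
miR-138 (miR-138-5p): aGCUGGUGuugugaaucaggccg
The 5 sequences have 5 different seeds, and 0 other mouse mature miRNAs of the RefSeq table carry any of them. No seed is thus shared among these members, which were listed for the tissue they are known from. In base composition miR-9 and miR-137, with 34.8% G and C each, stand below miR-128 with 47.6%, miR-138 with 56.5% and miR-129-5p with 57.1%.

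The genes of these miRNAs are scattered, and most members have several copies with the same mature sequence, which 1 probe cannot separate. miR-128 comes from chr1:128202404-128202424 on the plus strand, within the span of R3hdm1, and from chr9:112118644-112118664 on the minus strand, within Arpp21, both protein-coding genes. miR-138 comes from chr8:94324312-94324334 (plus), within protein-coding Nup93, and from chr9:122682898-122682920 (plus). miR-9 has 3 copies, each within the span of a long non-coding RNA, at chr3:88215613-88215635 (Gm3764), chr7:79505279-79505301 (Mir9-3hg) and chr13:83738821-83738843 (C130071C03Rik), all on the plus strand. miR-129-5p lies at chr2:94241419-94241439 (minus), within the long non-coding Mir670hg, and at chr6:29022624-29022644 (plus). miR-137 has the single copy chr3:118433901-118433923 (plus). The annotation used gives gene spans without exons, so intron or exon cannot be stated.

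To see which members were measurable, each raw intensity was set against the noise of its own array. Raw intensities are the deposited values after subtraction of the background, in arbitrary units. As subtraction leaves some values below 0, the size of the lowest value of an array was taken as its background limit. The limits of Tff2-KO replicates 1 to 6 were 60, 88, 36, 44, 48 and 32. Those of WT replicates 1 to 6 were 76, 52, 40, 44, 40 and 40. Between 57.5% and 83.7% of all miRNAs lay above the limit of an array, 300 miRNAs (42.3%) did so on all 12 arrays and 32 (4.51%) on none. There are no counts behind an intensity, and how precise a group mean is depends on the number of mice and the spread between them. Of the markers of blood cells, all 4 red cell miRNAs (miR-486, miR-451, miR-144 and miR-16), 2 of 3 myeloid and 1 of 3 lymphoid miRNAs were above the limit on all 12 arrays. Of the 2 platelet and endothelial miRNAs, miR-126-3p was above the limit on all 12 arrays and miR-126-5p on none. The lymphoid miR-181a passed on 11 arrays and miR-155 on 5, and the myeloid miR-142-3p passed on 1.

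The strongest signal over background among the members was that of mmu-miR-128. Its raw intensity was 544, 960.5, 504, 756, 428 and 472 in Tff2-KO replicates 1 to 6 and 400, 356, 424, 696, 356 and 604 in WT replicates 1 to 6. That is 5.26 to 17.2 times the background limit of the array (median 10.8). The bright mice were Tff2-KO replicates 2 and 4 and WT replicates 4 and 6, and the ranges of the genotypes overlapped.

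The neuronal mmu-miR-124 was above background on every array as well. Its raw intensity was 240, 144, 112, 168, 124 and 112 in Tff2-KO replicates 1 to 6. In WT replicates 1 to 6 it was 80, 208, 140, 96, 152 and 196. The margin was 1.05 to 4.90 times the limit (median 3.5), and it was smallest in WT replicate 1, whose limit was the highest of its group. The median miRNA of an array lay at 72 to 128. miR-124 was below it in WT replicate 1 (80 against 92) and WT replicate 4 (96 against 120), and above it on the other arrays. With a limit of 2 times the lowest value, miR-124 passed on 10 arrays and miR-128 on 12.

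For mmu-miR-138 the arrays were mixed. In Tff2-KO mice it was at 40, 12, 108, 76, 100 and 68, and in WT mice at 76, 20, 76, 104, 76 and 96 (raw intensity, replicates 1 to 6). It passed the limit on 4 arrays of each genotype. The arrays it passed were all 6 of the females (68 to 104) and 2 of the 6 of the males, whose values ran from 12 to 108 and thus overlapped those of the females. The limits were higher in the males too (36 to 88 against 32 to 48), and their part in this split was not tested.

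The other 3 members lay mostly in the noise. The Tff2-KO arrays gave mmu-miR-9 values of -12 to 28 (median 10) and the WT arrays values of -28 to 28 (median 2), all 12 of them below the limit. For mmu-miR-137 the Tff2-KO arrays lay at 20 to 40 (median 24) and the WT arrays at 12 to 64 (median 30), and the limit was passed in WT replicate 2 alone. For mmu-miR-129-5p, the lowest, median and highest values were 4, 40 and 80 in the knock-out and -4, 18 and 60 in the wild type. It passed in Tff2-KO replicate 4 and WT replicates 5 and 6. For these 3 miRNAs no fold is given, since each was at or under the limit on most arrays of both genotypes.

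**Figure D1:**
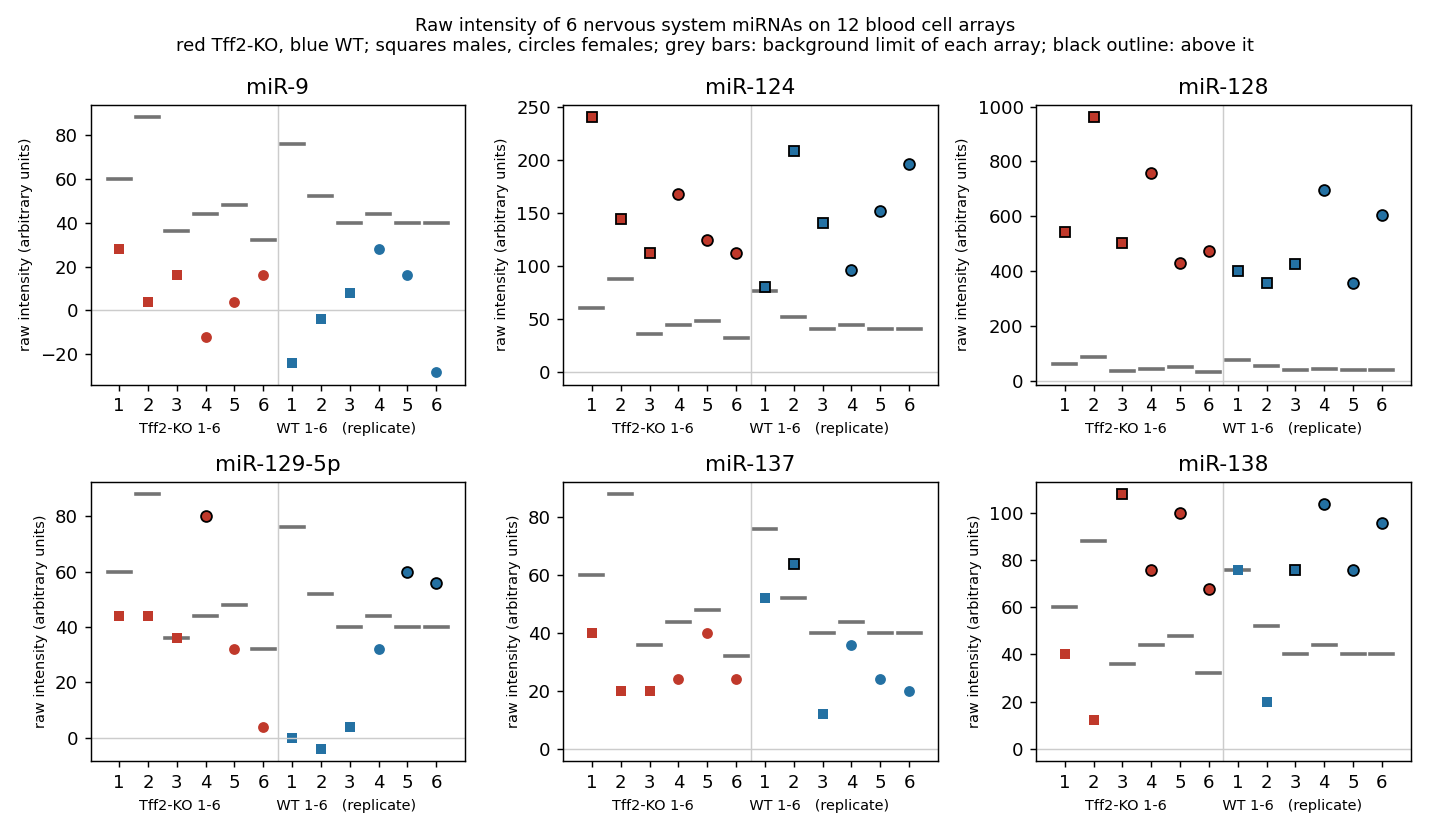
Raw intensity (arbitrary units) of each miRNA on each of the 12 arrays, by replicate, with red for Tff2-KO, blue for WT, squares for males and circles for females. Grey bars give the background limit of each array, and black outlines mark values above it, which are all 12 for miR-128 and miR-124, 8 for miR-138, 3 for miR-129-5p, 1 for miR-137 and 0 for miR-9.

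Other limits left the ends of this order in place and moved its middle. miR-128 and miR-124 were above it on at least 10 arrays with each of 4 limits, and no other member was. miR-9 was above none of the 4 on any array. With a limit of 2 times the lowest value, miR-138 passed on 5 arrays, with 4 of the 6 WT arrays not above it, and miR-129-5p and miR-137 passed on 0. With the 25th percentile of the array as the limit, miR-138 passed on 9, miR-129-5p on 2 and miR-137 on 1. Tff2-KO replicate 2 and WT replicate 1 had the highest limits, and without these 2 arrays miR-124 and miR-128 passed on 10 of 10, miR-138 on 8, miR-129-5p on 3, miR-137 on 1 and miR-9 on 0.

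The opposite strand of 4 of the hairpins has a probe of its own. Apart from that of miR-124, these strands were above background on more arrays than their partners. miR-9* is the strand opposite miR-9, with the sequence given here because the pair differs most between its 2 probes (seed in capitals).
miR-9* (miR-9-3p): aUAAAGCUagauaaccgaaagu
miR-9* lay at raw intensities of 60 to 168 (median 140) on Tff2-KO arrays and of 120 to 224 (median 142) on WT arrays, and passed on 12 of 12 arrays where miR-9 passed on 0. miR-138*, at 60 to 128 in the knock-out and 72 to 140 in the wild type, also passed on all 12. miR-129-3p passed on 11 arrays, all but Tff2-KO replicate 6, with 24 to 112 in the knock-out and 56 to 228 in the wild type. miR-124* passed on 11, with 32 to 144 and 64 to 120. Probes differ in brightness for the same amount of RNA, which can move the number of arrays above background as well as the level. RNA and probe thus cannot be told apart in these counts or in those of the members.

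**Figure D2:**
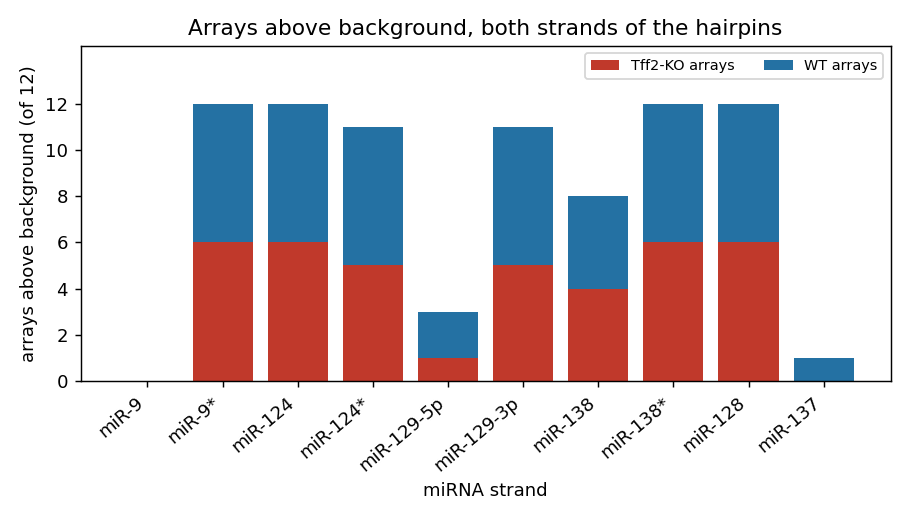
Number of arrays (of 12) on which each strand was above background, stacked by genotype, with the 2 strands of a hairpin side by side. miR-9 reached 0 and miR-9* 12 arrays, miR-129-5p 3 and miR-129-3p 11, and miR-138 8 and miR-138* 12.

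Other miRNAs known from tissues outside blood were counted in the same way. On at least 10 arrays, 2 of the 6 members (33.3%) were above background, against 6 of 18 other nervous system miRNAs (33.3%), 2 of 7 muscle miRNAs (28.6%) and 415 of all 710 (58.5%). These shares describe the lists and were not tested. With the 4 opposite strands counted in, as in the list first drawn up, the other nervous system miRNAs came to 10 of 22 (45.5%). Among the other nervous system miRNAs, miR-132, which neuronal activity induces and which is also known from immune cells, passed on all 12 arrays, as did miR-212, miR-384-5p and miR-433. At the other end, miR-135a, miR-330 and miR-7b passed on none.

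The genotypes were then compared over all 710 miRNAs with limma on log2 intensities, quantile normalized over the 12 arrays, with values below 1 set to 1 and Benjamini-Hochberg adjustment over the 710. None of the 6 members passed an adjusted p under 0.05 in limma. At an unadjusted p under 0.05 there were 0 of 6 too, in limma as in the exact permutation tests. Over the whole array 0.0% of the miRNAs passed the adjusted and 9.44% the unadjusted threshold. In 0 of the 6 members did the genotypes separate without overlap, against 1.13% of all miRNAs. No genotype difference of a member was thus called in this test over both sexes. With shares this low over the whole array, 0 of 6 does not set the members apart from the other miRNAs. Single mice are not known to come from separate litters or cages, so p-values measure the spread between these mice.

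miR-128 was at a normalized intensity of 538 ± 50.9 (SD, n = 6 mice, 479 to 621) in the knock-out and of 557 ± 52.0 (SD, n = 6 mice, 481 to 621) in the wild type. The log2 difference of Tff2-KO over WT was -0.050 (standard error 0.14, 95% interval -0.36 to 0.26, limma adjusted p = 0.919, two-sided exact permutation p = 0.526). It was the most even member, with an SD of 0.13 on the log2 scale over the 12 normalized arrays. Before normalization the SD was 0.45, and the log2 raw intensity of miR-128 correlated with the log2 mean intensity of the array at r = 0.90 (12 arrays, a description, as the mean holds all miRNAs). So the sign of its difference rests on the scaling, since the log2 difference was 0.36 when the arrays were not normalized, 0.50 when they were scaled to their median and 0.33 when scaled to their 75th percentile (limma adjusted p = 0.630, 0.398 and 0.454). In females only it was 0.054.

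miR-124 was at a normalized intensity of 154 ± 31.4 (119 to 204) in the knock-out and 152 ± 58.9 (79.7 to 223) in the wild type (SD, n = 6 each), so that the WT mice enclosed the Tff2-KO mice on both sides. The log2 difference was 0.11 (standard error 0.29, 95% interval -0.51 to 0.73, limma adjusted p = 0.905, exact permutation p = 0.680). Without WT replicate 1 or WT replicate 4, the lowest of the WT mice, it was -0.036 and -0.055. In contrast to miR-128, miR-124 did not follow the brightness of the array before normalization (r = -0.10, 12 arrays), and its SD on the log2 scale was 0.47 both before and after normalization.

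miR-138 was at a normalized intensity of 79.6 ± 46.4 (19 to 130) in the knock-out and 71.3 ± 30.9 (9 to 91.7) in the wild type (SD, n = 6 each). The log2 difference was 0.14 (standard error 0.67, 95% interval -1.31 to 1.60, limma adjusted p = 0.949, exact permutation p = 0.829). The interval is wide in both directions. The sign turned with the scaling and in 3 of the 12 fits that left out a mouse. Without WT replicate 2, the lowest WT mouse, the log2 difference was -0.40 (limma adjusted p = 0.891), and without Tff2-KO replicates 3 and 5 it was -0.034 and -0.065. Since miR-138 was not above a limit of 2 times the lowest value on 4 of the 6 WT arrays, its difference would not be given under that limit.

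**Figure D3:**
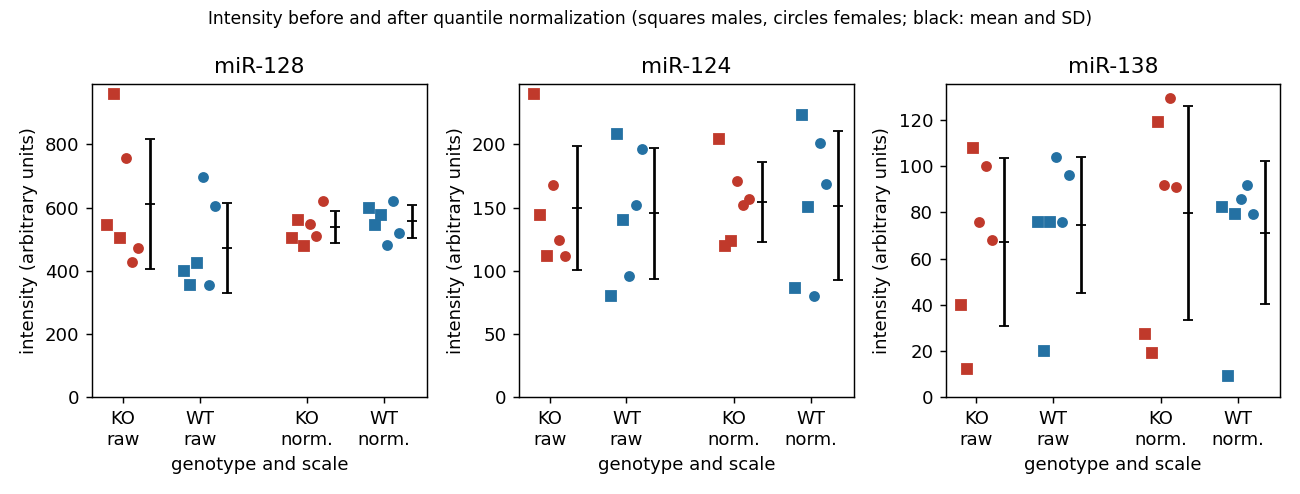
Intensity (arbitrary units, linear axes from 0) of miR-128, miR-124 and miR-138 in each mouse, before (raw) and after quantile normalization (norm.), with red for Tff2-KO, blue for WT, squares for males and circles for females. Black bars give mean and SD over 6 mice, and for miR-128 all 12 normalized values lie between 479 and 621, while raw values lie between 356 and 960.5.

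For the members near background only the test is given. The limma adjusted p was 0.591 for miR-9, 0.805 for miR-137 and 0.507 for miR-129-5p, with exact permutation p = 0.182, 0.457 and 0.110. In the second deposited table, which was normalized before deposit, the adjusted p of the 6 members in limma ran from 0.505 (miR-129-5p) to 0.949 (miR-138). Of the opposite strands, miR-9* had the smallest p, at 127 ± 24.0 in the knock-out and 158 ± 32.6 in the wild type (normalized intensity, SD, n = 6 each; log2 difference -0.31, standard error 0.21, limma adjusted p = 0.591). miR-129-3p was at 81.6 ± 29.3 and 118 ± 62.1, which did not pass (limma adjusted p = 0.715).

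Among the 18 other nervous system miRNAs, 0 passed an adjusted p under 0.05 in limma, and 1 had an unadjusted p under 0.05. Over the whole array the shares were 0.0% and 9.44%, so the list does not stand out by these counts. The 1 miRNA was miR-132, at 205 ± 34.2 in the knock-out and 149 ± 40.9 in the wild type (normalized intensity, SD, n = 6 each; log2 difference 0.49, standard error 0.21, limma adjusted p = 0.507). Next came miR-433 and miR-344 with log2 differences of -0.61 and -0.53 (limma adjusted p = 0.531 each), and miR-135a, which was never above background. The median log2 difference of the 18 was 0.022 (-0.13 with the 4 opposite strands, all lower in the knock-out and none past the test), that of the 6 members 0.24 and that of all 710 miRNAs 0.013. Only 6 of the 18 and 2 of the 6 were above background on at least 10 arrays, so these medians rest in part on values near background. Of the 7 muscle miRNAs, 0 passed at an adjusted and 0 at an unadjusted p under 0.05, against 0.0% and 9.44% of all miRNAs.

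When the sexes were taken apart, miR-129-5p was the member with the smallest p for a genotype by sex interaction. In the 3 males of each genotype its raw intensity was 44, 44 and 36 in Tff2-KO mice and 0, -4 and 4 in WT mice. In the 3 females of each genotype it was 80, 32 and 4 in Tff2-KO mice and 32, 60 and 56 in WT mice. The males did not overlap between the genotypes, whereas the females did. None of the 6 values of the males was above the limit of its array, however, and the 3 WT males were all at the floor of 1 after normalization. Other members had such gaps too. In males, raw miR-128 was at 504 to 960.5 in Tff2-KO and 356 to 424 in WT mice, but its normalized values overlapped. After normalization, miR-9 in males (10.0 to 20.2 against 1.0 to 4.67) and miR-137 in females (34.7 to 50.7 against 15.3 to 28.3) did not overlap, both near background. The share of all miRNAs with such a gap was not counted.

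The genotype by sex interaction of miR-129-5p had an unadjusted p of 0.000187 and an adjusted p of 0.0666 in limma over all 710 miRNAs, the second smallest of the array. At an unadjusted p under 0.05, 10.0% of all miRNAs had such an interaction, and 0.141%, or 1 miRNA, at an adjusted p under 0.05. That miRNA was miR-26b*, which was above background on 0 arrays. Like miR-129-5p, it was 1 of 18 miRNAs with 3 mice of a genotype and sex all at the floor. Of these 18, 7 had an interaction at an unadjusted p under 0.05 in limma. Among the 89 miRNAs above background on at most 3 arrays the share was 12.4%, and among the 415 above it on at least 10 arrays 10.1%. What part the floor has in these calls was not tested. With a pseudocount of 16 in place of the floor, an alternative chosen after seeing the data, the unadjusted p of miR-129-5p was 0.0113 and the adjusted p 0.358. Without Tff2-KO replicate 4 and without Tff2-KO replicate 6 the adjusted p was 0.00717 and 0.0466. Without any other single mouse it ran from 0.0694 to 0.199. In males only, miR-129-5p was called higher in Tff2-KO mice (limma adjusted p = 0.000372 with the floor and 0.0436 with the pseudocount), but the two-sided exact permutation p was 0.100, the smallest that 3 against 3 mice allow. With the floor, 117 of the 710 miRNAs had an unadjusted p under 0.05 in males only, and 2 an adjusted p under 0.05. The other 5 members had interactions with an adjusted p from 0.549 to 0.965.

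**Figure D4:**
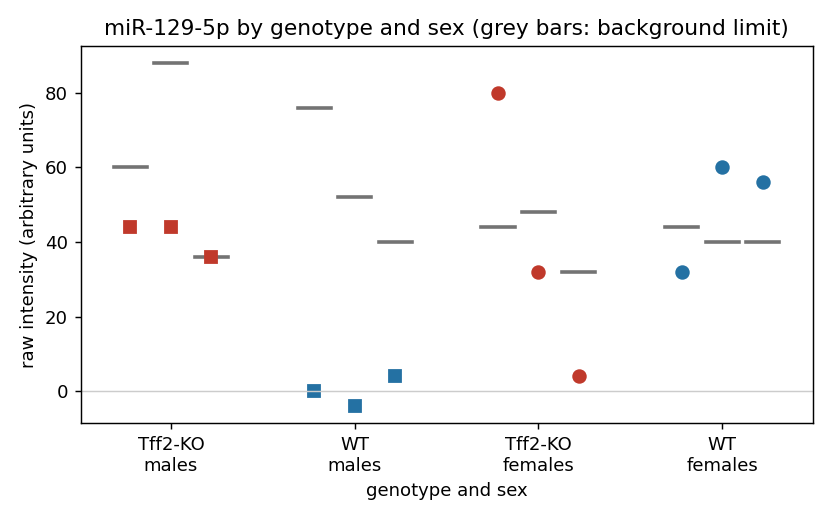
Raw intensity (arbitrary units) of miR-129-5p in each mouse by genotype and sex, with red for Tff2-KO and blue for WT. Grey bars mark the background limit of each array, and the values of the males lie between 36 and 44 in Tff2-KO and between -4 and 4 in WT mice, none of them above its limit.

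Correlations between the members over the mice were weak. Among the 15 pairs of members, Pearson correlations of log2 normalized intensity over the 12 mice ran from -0.35 (miR-124 with miR-138) to 0.36 (miR-9 with miR-129-5p), values that share arrays and normalization. Most of these pairs, the highest included, hold miR-9, miR-129-5p or miR-137, which lay mostly in the noise, so their correlations say little about RNA. For the pair above background on all arrays, miR-124 and miR-128, the correlation was 0.18. Of the other miRNAs of the array, those most like miR-124 were miR-411 (r = 0.78), miR-106b (0.75) and miR-214 (0.75). Those most like miR-128 were miR-713 (0.72), miR-1950 (0.72) and miR-300* (0.70). These are the 3 highest for each member among all miRNAs of the array, over only 12 mice, and 4 of these 6 were above background on all 12 arrays, miR-411 on 10 and miR-300* on 4.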

How the data were processed

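Background-subtracted intensities of 12 arrays, 1 per mouse, were read from the raw table deposited by the authors, who summarised 7 spots per miRNA (probes after miRBase version 14) by their median after correcting the background. A second deposited table, with intensities on a linear scale that the authors had quantile normalized, served as an alternative. Groups and sexes came from the sample labels. The raw intensities were quantile normalized, values below 1 were set to 1, and log2 values were tested with limma (version 3.58.1, R 4.3.3). Single values were tested with two-sided exact permutation over the 924 groupings of the mice. Members above background were described before any comparison. No fold is given where a member was at or under the limit on more than 3 of the 6 arrays of a genotype. The 6 members and the lists were chosen with earlier results of these data known, and the 4 opposite strands were taken out of the nervous system list after its values were seen. Named are the members, their opposite strands, up to 4 miRNAs of a list with the smallest p, and the 3 miRNAs most like each member above background on at least 10 arrays. miR-212, miR-384-5p, miR-330, miR-7b and miR-26b* were named after their values were seen. Alternatives were other scalings, normexp (offset 50), a pseudocount (16), filters on dim miRNAs, a replicate block, array weights, sex as covariate, t-tests, single sexes and each mouse left out. The limma step was tested on simulated normal log2 values without a floor, with changes put only into miRNAs brighter than the median. That test does not cover values at the floor. Plots were made in Python 3.11.15 with matplotlib 3.10.9.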

Additional observations from a re-analysis of the deposited data

Results flagged for a closer look

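Of 14 groups of 6 values tested for one that lies far from the others (for each genotype, 6 members and the background limit), 3 held such a value. By chance about 1 in 20 would. In Tff2-KO replicate 4, a female, miR-129-5p had a normalized intensity of 95.7, with the other Tff2-KO mice between 11.3 and 42.7. In WT replicate 2, miR-138 was at 9.0, with the other WT mice between 79.3 and 91.7. The background limit of WT replicate 1 was 76, with the other WT arrays between 40 and 52.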

How the results depend on the processing

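The count of miRNAs past an adjusted p under 0.05, which was 0 of 710 in limma (67 at an unadjusted p under 0.05), was 4 with normexp, 6 when miRNAs dimmer than the median miRNA were dropped, 2 in males only, 3 in females only and 1 in males only with a pseudocount of 16 (chosen after seeing the data), and 0 without any 1 mouse. With a replicate block it was 0, and no call of a member changed; same-numbered mice correlated from -0.17 to 0.11 and 0 of 6 Tff2-KO mice correlated best with their own number, so the numbers were not taken as pairs. The direction of miR-128 turned without normalization between arrays (0.36), with median scaling (0.50), 75th percentile scaling (0.33) and in females only (0.054), and its log2 difference without 1 mouse ran from -0.093 to -0.018. That of miR-138 turned without normalization (-0.285), with median scaling (-0.14), 75th percentile scaling (-0.315), cyclic loess (-0.059), in males only (-0.016) and in males with a pseudocount (-0.073), and without 1 mouse it ran from -0.40 to 0.48. For miR-124 it ran from -0.055 to 0.25 without 1 mouse. Near background, the direction of miR-137 turned without normalization, with median scaling, 75th percentile scaling, in males only and in males with a pseudocount (limma adjusted p = 0.890, 0.992, 0.862, 0.892 and 0.780), and those of miR-9 and miR-129-5p in females only (0.998 and 0.9745). miR-129-5p passed in males only (adjusted p = 0.000372, and 0.0436 with the pseudocount). At an unadjusted p under 0.05, miR-129-5p passed with sex as covariate (0.0225), with array weights (0.0170) and without Tff2-KO replicate 6, WT replicate 4, 5 or 6 (0.0461, 0.0463, 0.0151 and 0.0230), and miR-9 without Tff2-KO replicate 4, in males only and in males with the pseudocount (0.0298, 0.0095 and 0.0094, limma in each case). In the interaction, between 0 and 1 of the 6 members passed without 1 mouse. No member passed the adjusted threshold in any other setting tried, and the cause of these changes was not tested. The filters on dim miRNAs kept 2 members (brighter than the median) or 3 (above background on 6 or more arrays), so the others have no value there. Of the 6 members, miR-128 was the one above 5 times the limit on every array.
Of the miRNAs at an unadjusted p under 0.05, 40.3% were higher in Tff2-KO mice, and this ran from 16.1% to 60.2% with other settings. The count at an unadjusted p under 0.05 was 42 without Tff2-KO replicate 4, 117 in males only, 137 in males with the pseudocount and 33 in females only.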
